A study of Sus scrofa with 6 samples.

Results

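The genes described here are the collagen chains, the matrix metalloproteinases (MMPs), their tissue inhibitors (TIMPs) and the ADAMTS proteases in the lung of piglets around birth. They are the mRNAs whose pig gene symbol is COL, a number, A and a number, or MMP or ADAMTS with a number, or TIMP1 to TIMP4. The rule gave 56 of 14579 mRNAs, namely 30 collagen chains, 10 MMPs, 1 TIMP and 15 ADAMTS genes. The reference table of pig gene names holds 81 symbols of this kind, and 25 of them, including COL1A1, COL4A1, TIMP3, TIMP4, MMP1, MMP3, MMP7, MMP12 and MMP13, matched no row and were not analysed here. Symbols were available for 9478 of the 14579 mRNAs.

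Lung tissue was taken from 6 female hybrid piglets with Tibetan pigs on the sire side and Meishan pigs on the dam side. The fetal group, which the labels call prenatal, held 3 piglets from 3 sows on the last day before birth, with pregnancy taken as 113 days. The neonatal group held 3 piglets from 3 other sows, 2 days after birth. Each piglet gave 1 strand-specific library of ribosome-depleted total RNA from whole lung. The groups therefore differed in age, in birth and in sows at once, and these cannot be told apart.

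Collagens are built from 3 polypeptide chains wound around each other, and different chains form the thick fibrils of the interstitium, the sheets of basement membranes or the fine networks that link them. MMPs are zinc proteases that cut collagens and other matrix proteins, and TIMPs block them. ADAMTS proteases trim procollagens into their mature form or cut the large proteoglycans that fill the space between fibers. In the lung, this matrix forms the scaffold of airways, vessels and alveolar septa.

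Expression was given as FPKM, fragment counts scaled by transcript length and by the mapped fragments of the library, so that levels can be set side by side between genes of different length. Differences are log2(FC) values of the neonatal minus the fetal group on the log2(FPKM + 1) scale, fitted in limma over all mRNAs with Benjamini-Hochberg adjustment, with the threshold set at an adjusted p of 0.05. Ratios of mean FPKM are given for some genes. For low genes, log2(FPKM + 1) understates the change, so their differences cannot be read as fold changes. The table holds no read counts, so the error of each gene rests on the spread between 3 piglets per group. In limma, this spread was moderated by a variance trend over all mRNAs. The FPKM of all mRNAs summed to between 339491 and 777982 per sample, and every neonatal total was above every fetal total. The median log2(FC) over the whole table was 0.13, against -0.0090 after median-of-ratios scaling and -0.038 after quantile normalization. Small differences, higher sums and groups that do not overlap are read against this shift. Of all mRNAs, 1001 passed the threshold (6.87%), 789 higher (5.41%) and 212 lower (1.45%) in the neonatal group. The split became 650 higher and 335 lower with median-of-ratios scaling, and 669 and 486 with quantile normalization.

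In the neonatal lung, 7 of the 56 genes rose and 1 fell, where rose and fell mean past the threshold, here and below. Of all 56, 37 had a positive and 19 a negative log2(FC), beside 8729 and 5850 of all mRNAs. COL16A1, COL8A1, COL6A3, COL15A1, MMP19, MMP15 and ADAMTS7 were higher, and COL5A3 was lower. By family, 4 of 30 collagen chains rose and 1 fell, 2 of 10 MMPs rose, 1 of 15 ADAMTS genes rose, and TIMP1 did not pass. Of all mRNAs, 5.41% rose and 1.45% fell, and the ADAMTS count lay near these shares. Another 10 genes had an adjusted p between 0.05 and 0.1. All neonatal values lay above the fetal values in 25 of the 56 genes and below them in 7, against 20.9% and 9.64% of all mRNAs. The median log2(FC) was 0.24 over the collagens, 0.60 over the MMPs and -0.02 over the ADAMTS genes, beside 0.13 over all mRNAs. With median-of-ratios scaling and quantile normalization, the collagen median was 0.10 and 0.043 and the ADAMTS median -0.17 and -0.15, and the MMP median was 0.30 with quantile normalization. The collagen median was also 0.10 without fetal piglet 1 and 0.44 without fetal piglet 3, and the ADAMTS median was 0.15 without fetal piglet 1 and 0.078 without neonatal piglet 2.

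All rows of the table had FPKM above 0.5 in at least 1 sample. Of the 56 genes, 46 were above 0.5 in all 6 samples and 52 in at least 1 sample of each group. COL10A1 and MMP8 were above it in the neonatal group alone, and MMP17 and MMP27 in the fetal group alone, so these 4 had to differ in some measure to be listed. Counts over the listed genes are a description for this reason. In whole lung, fewer cells of a type and less RNA per cell cannot be told apart.

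**Figure D1:**
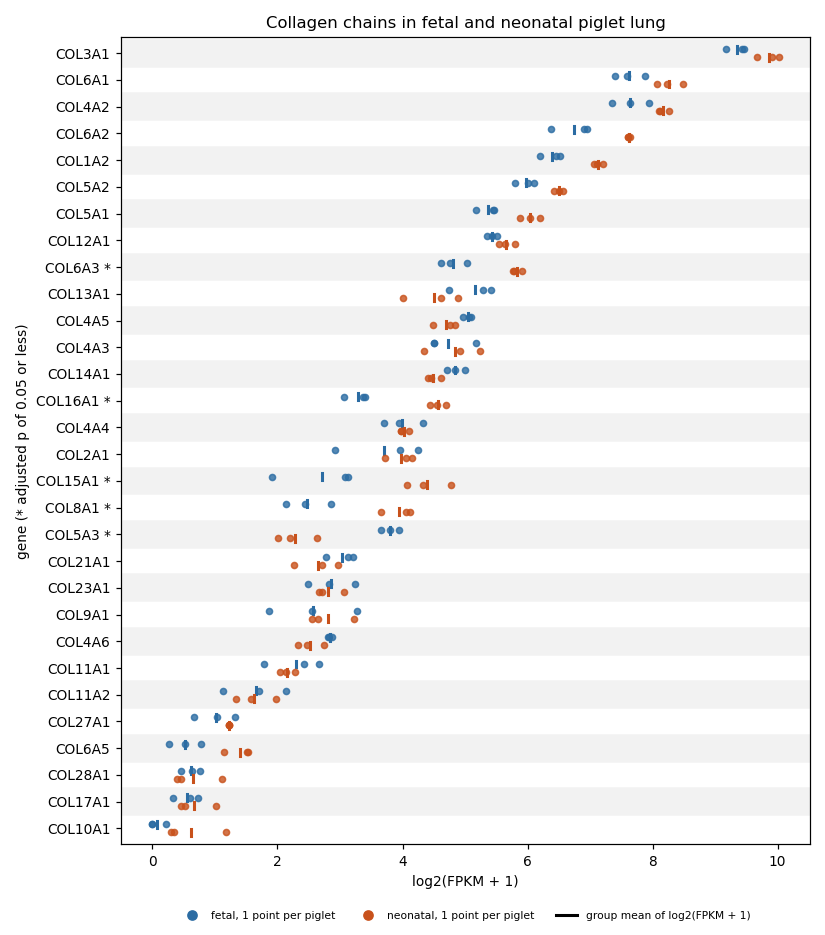
Values of the 30 collagen chains on the log2(FPKM + 1) axis, with 1 point per piglet, vertical ticks for the group means and asterisks for chains past the threshold, ordered by mean FPKM. COL3A1 is the highest of these 30 matched chains in every sample, and of the 5 marked chains COL5A3 alone has its fetal points to the right of its neonatal points.

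**Figure D2:**
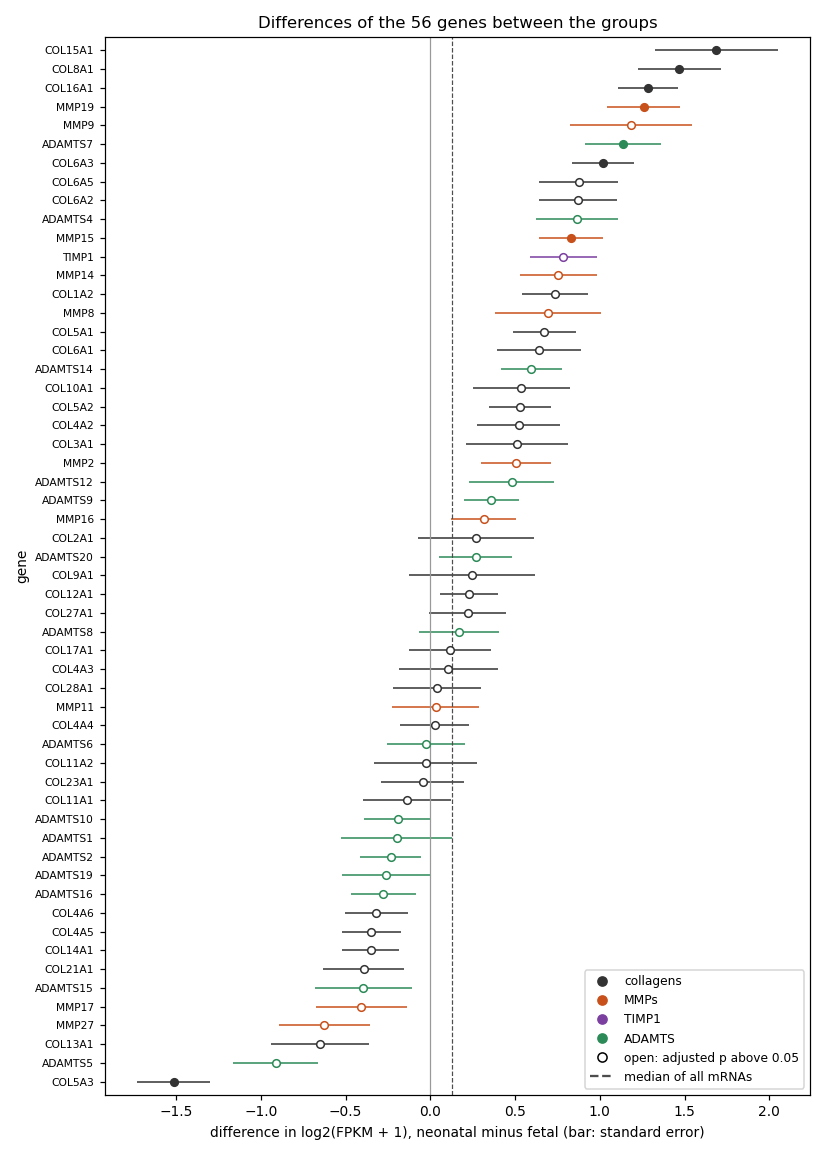
Difference between the neonatal and the fetal group for each of the 56 genes on the log2(FPKM + 1) scale, with the standard error of the limma fit. The differences run from -1.52 for COL5A3 to 1.69 for COL15A1.

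Fibrillar collagens carry the tensile strength of the interstitium. COL3A1, the chain of type III collagen, was listed at 707, 578 and 687 FPKM in the fetal piglets and at 815, 964 and 1038 FPKM in the neonatal piglets. It made up between 37.5% and 43.2% of the summed FPKM of the 30 matched collagen chains in every sample. Chains that matched no row, such as COL1A1 and COL4A1, are not in that sum. The groups did not overlap, but the difference did not pass (log2(FC) = 0.51, adjusted p = 0.342), and it was -0.067 after quantile normalization. COL1A2, a chain of type I collagen, was at 90.8, 72.8 and 86.5 FPKM before birth and 138, 132 and 147 FPKM after it. All neonatal values were above all fetal values, and the test missed the threshold (log2(FC) = 0.74, adjusted p = 0.0670). The ratio of COL3A1 to COL1A2 was 7.79, 7.94 and 7.94 in the fetal and 5.92, 7.28 and 7.05 in the neonatal piglets, so every neonatal ratio was lower.

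Type V collagen sits inside type I fibrils and limits their width, and 1 of its 3 chains fell. COL5A3 was at 13.0, 11.6 and 14.4 FPKM in the fetal piglets and 3.62, 5.22 and 3.02 FPKM in the neonatal piglets. The lowest fetal value was above the highest neonatal value, and the mean fell from 13.0 ± 1.41 to 3.96 ± 1.14 FPKM (SD, n = 3 each). COL5A3 was the 1 gene of the 56 that passed the threshold as lower (log2(FC) = -1.52, SE = 0.22, adjusted p = 0.0102 in limma). COL5A1 moved the other way in its values, from 42.7, 35.1 and 43.2 FPKM to 72.2, 64.7 and 57.6 FPKM, with no overlap. Its difference missed the threshold (log2(FC) = 0.67, adjusted p = 0.0795). The COL5A1 to COL5A3 ratio was 3.30, 3.03 and 3.0 in the fetal lungs and 19.9, 12.4 and 19.0 in the neonatal lungs. COL5A2 showed 62.1 ± 6.82 and 89.7 ± 4.4 FPKM (SD, n = 3 each), also without overlap and not past the threshold (adjusted p = 0.134). The COL5A3 call was lost when fetal piglet 1 (adjusted p = 0.0542) or fetal piglet 2 (adjusted p = 0.0577) was left out.

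COL2A1, COL9A1, COL11A1 and COL11A2 form the fibrils of cartilage, which the airway walls contain, and none passed the threshold. They were singled out after their values were seen, because fetal piglet 1 had the lowest value of all 6 samples in each. COL2A1 was at 6.57, 14.5 and 18.0 FPKM in the fetal group and 15.6, 16.8 and 12.2 FPKM in the neonatal group. COL9A1 was at 2.63, 4.89 and 8.63 FPKM before birth and 4.88, 8.36 and 5.26 FPKM after it. The groups overlapped in all 4 genes. The summed level of the 8 cartilage markers, all measured, was 13.4 to 21.0 FPKM in the fetal and 12 to 13.6 FPKM in the neonatal samples, and 0 of the 8 passed the threshold, also 0 at an unadjusted p under 0.05 in limma. CNMD and SNORC were each listed at 0 in 1 sample, and the part of cartilage in these values was not tested.

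**Figure D3:**
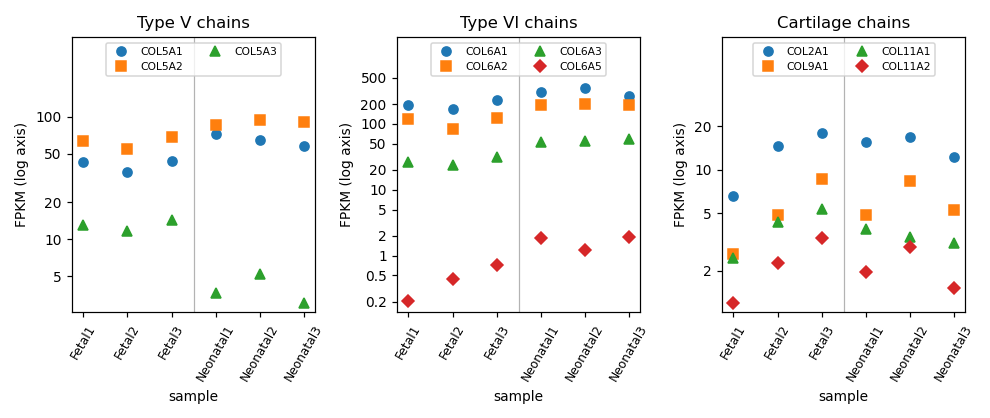
FPKM on a log axis in each of the 6 piglets for the chains of type V collagen, of type VI collagen and of the collagens of cartilage, with 1 marker per chain and a line between the fetal and neonatal samples. COL5A3 drops while COL5A1 and COL5A2 lie higher in the neonatal piglets, the type VI chains all lie higher, and the cartilage chains are lowest in fetal piglet 1.

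Type VI collagen forms beaded filaments that link cells to the surrounding matrix. COL6A3, its largest chain, was at 26.2, 23.4 and 31.8 FPKM in the fetal lungs and 53.8, 54.2 and 59.2 FPKM in the neonatal lungs. All neonatal values were above all fetal ones, and the chain rose 2.05-fold in mean FPKM (log2(FC) = 1.02, SE = 0.18, adjusted p = 0.0217 in limma). COL6A1 was at 192, 167 and 234 FPKM and then 300, 356 and 269 FPKM. COL6A2 was at 119, 82.5 and 123 FPKM and then 193, 199 and 195 FPKM. The groups did not overlap for either chain, but neither difference passed (adjusted p = 0.169 for COL6A1 and 0.0679 for COL6A2). COL6A5, a chain found at low levels here, was at 0.202, 0.440 and 0.721 FPKM before birth and 1.86, 1.22 and 1.89 FPKM after it, again without overlap (adjusted p = 0.0692). The ratio of COL6A1 to COL6A3 was 7.33, 7.14 and 7.34 in the fetal piglets and 5.57, 6.57 and 4.55 in the neonatal piglets. The ratio of COL6A1 to COL6A2 overlapped, at 1.62, 2.03 and 1.90 against 1.55, 1.79 and 1.38. The COL6A3 call was kept without fetal piglet 3 or neonatal piglet 1 and lost without fetal piglet 1 (adjusted p = 0.0814), fetal piglet 2 (0.0943), neonatal piglet 2 (0.0826) or neonatal piglet 3 (0.0715).

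Type IV collagen is the sheet-forming collagen of basement membranes. In limma, 0 of its 5 measured chains passed the threshold, also 0 at an unadjusted p under 0.05, beside 3535 of 14579 mRNAs. COL4A2, which pairs with COL4A1 in most basement membranes, was at 197, 162 and 244 FPKM in the fetal and 278, 305 and 273 FPKM in the neonatal group (adjusted p = 0.242). All its neonatal values were higher. COL4A3, COL4A4 and COL4A5 make up the network of the alveolar and glomerular basement membranes. COL4A3 was at 21.8, 21.7 and 35.1 FPKM before and 19.4, 36.6 and 29.4 FPKM after birth. COL4A4 was at 12.1, 14.3 and 19.1 FPKM before and 14.8, 16.1 and 14.7 FPKM after it. Both overlapped, and their small positive differences (0.11 and 0.03) turned negative with median-of-ratios scaling (-0.067 and -0.14). COL4A5 was at 30.4, 32.5 and 33.1 FPKM in the fetal group and 26.1, 27.5 and 21.4 FPKM in the neonatal group. Its groups did not overlap, and the difference did not pass (log2(FC) = -0.35, adjusted p = 0.263). The COL4A2 to COL4A5 ratio was 6.50, 4.98 and 7.38 against 10.6, 11.1 and 12.8, while the COL4A3 to COL4A4 ratio overlapped at 1.80, 1.52 and 1.83 against 1.31, 2.27 and 1.99.

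Among the collagens that decorate fibrils or form short networks, 3 chains rose. COL16A1, a fibril-associated chain, was at 9.55, 7.40 and 9.37 FPKM in the fetal piglets and 20.7, 25.0 and 22.6 FPKM in the neonatal piglets. The lowest neonatal value was above the highest fetal value by a wide margin, and the mean rose from 8.78 ± 1.19 to 22.8 ± 2.14 FPKM (SD, n = 3 each). Its difference had the lowest adjusted p of the 56 genes (log2(FC) = 1.28, SE = 0.18, adjusted p = 0.00950 in limma). It was lost without fetal piglet 2 (adjusted p = 0.0534) or neonatal piglet 2 (0.0515).

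COL8A1, a short-chain collagen of vessel walls, was at 6.27, 4.4 and 3.38 FPKM before birth and 11.6, 16.5 and 15.6 FPKM after it. No values overlapped between the groups, and the mean was 3.11-fold higher in the neonatal group (log2(FC) = 1.47, SE = 0.25, adjusted p = 0.0171 in limma). The call was lost without fetal piglet 2 (adjusted p = 0.0949), fetal piglet 3 (0.0593), neonatal piglet 2 (0.0826) or neonatal piglet 3 (0.0773). COL15A1, a collagen next to the basement membranes of vessels and muscle, was at 7.73, 2.74 and 7.49 FPKM in the fetal and 15.9, 26.4 and 19.1 FPKM in the neonatal piglets. Fetal piglet 2 was the lowest of all 6, and the groups did not overlap. On the log2(FPKM + 1) scale, the difference was the largest of the genes that rose (log2(FC) = 1.69, SE = 0.36, adjusted p = 0.0366 in limma), and it was lost whichever single piglet was left out (adjusted p from 0.0649 to 0.136).

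COL12A1, the highest of the matched fibril-associated chains, was at 39.7, 42.3 and 44.7 FPKM in the fetal and 45.7, 48.7 and 54.7 FPKM in the neonatal group. All neonatal values were higher, but the difference did not pass (adjusted p = 0.453) and was -0.11 after quantile normalization. COL13A1, a collagen anchored in the cell membrane, was at 41.8, 25.9 and 38.2 FPKM before and 15, 28.7 and 23.5 FPKM after birth, with overlap (log2(FC) = -0.65, adjusted p = 0.220). COL28A1 stayed near the lower end of the table, at 0.541, 0.697 and 0.365 FPKM and then 0.311, 0.368 and 1.17 FPKM, and its groups overlapped. Its difference of 0.04 turned negative under both scalings, to -0.031 and -0.046. COL14A1, a fibril-associated chain at 27.9 ± 2.90 and 21.6 ± 1.76 FPKM (SD, n = 3 each), did not pass (adjusted p = 0.250), though it was called lower after quantile normalization. COL10A1 was listed at 0 in fetal piglets 1 and 3.

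The summed FPKM of the 30 collagen chains was 1686, 1411 and 1810 in the fetal and 2174, 2473 and 2402 in the neonatal piglets. Every neonatal sum was higher, at 1.44 times the fetal mean. As a share of the summed FPKM of all mRNAs, the same chains made up 0.396%, 0.416% and 0.384% in the fetal and 0.442%, 0.410% and 0.309% in the neonatal lungs, and these shares overlapped.

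**Figure D4:**
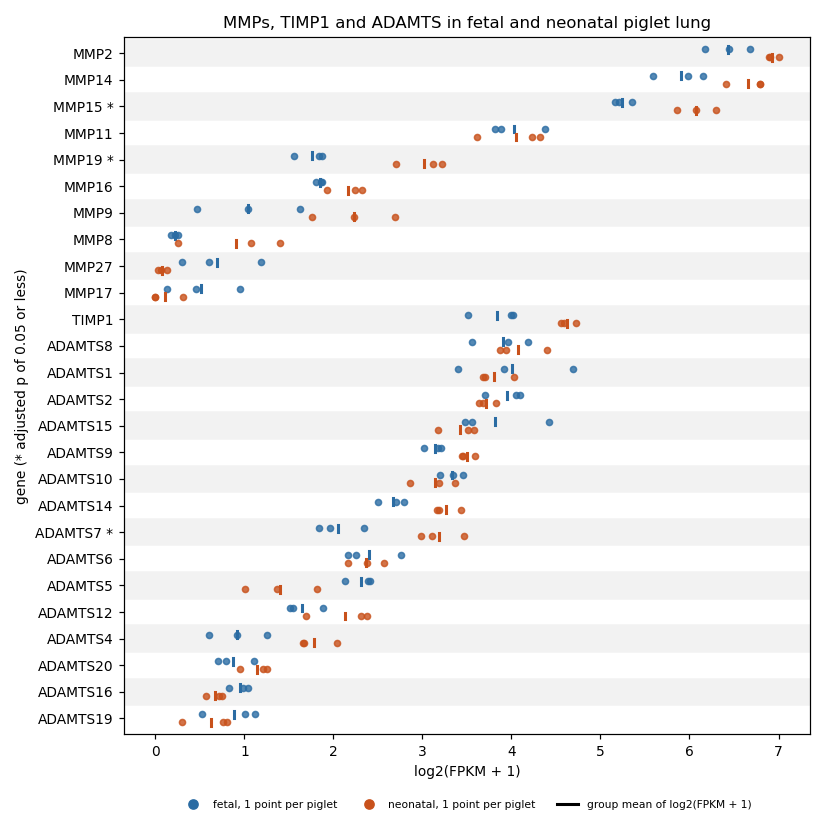
Values of the 10 MMPs, TIMP1 and the 15 ADAMTS genes on the log2(FPKM + 1) axis, with 1 point per piglet, vertical ticks for the group means and asterisks for the genes past the threshold. MMP15, MMP19 and ADAMTS7 are marked, and their neonatal points lie to the right of all their fetal points.

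Of the 10 MMPs, 2 passed the threshold as higher and none as lower, beside 5.41% and 1.45% of all mRNAs. MMP17 and MMP27 had negative differences that did not pass. MMP19, a protease of basement membrane proteins, was at 2.65, 1.95 and 2.58 FPKM in the fetal piglets and 7.71, 8.31 and 5.52 FPKM in the neonatal piglets. The groups were far apart, with a 3.0-fold higher neonatal mean (log2(FC) = 1.26, SE = 0.21, adjusted p = 0.0183 in limma). The call was lost when any 1 fetal piglet was left out (adjusted p = 0.0669, 0.0968 and 0.0589) or without neonatal piglet 2 (0.0821). MMP15, a membrane-type MMP, was at 36.1, 34.7 and 40.0 FPKM before birth and 56.8, 66.1 and 77.7 FPKM after it. All neonatal values were higher, and its mean was 1.81-fold that of the fetal group (log2(FC) = 0.83, SE = 0.19, adjusted p = 0.0450 in limma). MMP15 passed narrowly: it was kept without neonatal piglet 1 and lost when any other piglet was left out (adjusted p from 0.0992 to 0.154), and it missed the threshold after quantile normalization (0.0709) and without a variance trend (0.0507).

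MMP2 and MMP14 were the most abundant of the 10 matched MMPs. MMP2, a gelatinase, was at 85.8, 71.1 and 101 FPKM in the fetal and 119, 118 and 127 FPKM in the neonatal group. MMP14, the membrane-type MMP that activates MMP2, was at 69.9, 47.2 and 62.1 FPKM and then 83.8, 110 and 109 FPKM. The groups did not overlap for either gene, and neither passed (adjusted p = 0.191 for MMP2 and 0.0972 for MMP14). MMP11, a stromelysin, overlapped at 13.1, 13.8 and 19.7 FPKM against 11.3, 17.7 and 19.0 FPKM, and its difference of 0.03 became -0.14 with median-of-ratios scaling.

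MMP9 and MMP8 are a gelatinase and a collagenase that neutrophils store in their granules. MMP9 was at 1.06, 2.09 and 0.382 FPKM in the fetal and 2.39, 3.71 and 5.48 FPKM in the neonatal piglets, without overlap and not past the threshold (log2(FC) = 1.18, adjusted p = 0.0992). MMP8 was at 0.131, 0.162 and 0.197 FPKM before birth and 1.11, 0.189 and 1.65 FPKM after it, and neonatal piglet 2 lay within the fetal range (adjusted p = 0.229). Of 8 neutrophil markers, 4 were measured, and their sum was 31.5 to 43.9 FPKM in the fetal and 198 to 295 FPKM in the neonatal samples. Most of this sum was S100A8 in every sample. S100A8 and LTF rose, while ELANE, the neutrophil elastase, was listed at 0 in all 3 neonatal piglets. The part of neutrophils in the MMP values was not tested. MMP27 went the other way in its values, from 0.521, 1.28 and 0.227 FPKM to 0.0926, 0.0421 and 0.0193 FPKM, without overlap (log2(FC) = -0.63, adjusted p = 0.209). MMP27 and MMP8 are neighbours on the pig genome in the RefSeq annotation, 1 of 5 such pairs among the genes described here. ADAMTS8 and ADAMTS15 also had differences of opposite sign (0.17 and -0.40), and the other pairs had differences of the same sign.

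TIMP1, an inhibitor of most MMPs and the 1 TIMP matched to a row by symbol, was at 15.2, 10.4 and 15 FPKM in the fetal piglets and 22.6, 25.4 and 23.1 FPKM in the neonatal piglets. The groups did not overlap, but the difference missed the threshold (log2(FC) = 0.78, SE = 0.20, adjusted p = 0.0603 and an unadjusted p under 0.05 in limma), and it passed under none of the alternatives run. TIMP2 has no entry in the table of gene names used here and could not be looked up. The MMP2 to TIMP1 ratio was 5.65, 6.85 and 6.76 in the fetal and 5.25, 4.63 and 5.52 in the neonatal group, with every neonatal ratio lower. The MMP14 to TIMP1 ratio overlapped, at 4.60, 4.55 and 4.14 against 3.71, 4.32 and 4.74.

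ADAMTS7, a protease of cartilage oligomeric matrix protein, was the ADAMTS gene that rose. It was at 2.88, 2.57 and 4.09 FPKM in the fetal lungs and 10.0, 6.89 and 7.64 FPKM in the neonatal lungs. The groups did not overlap, and the neonatal mean was 2.58-fold higher (log2(FC) = 1.14, SE = 0.22, adjusted p = 0.0289 in limma). The call was lost with median-of-ratios scaling (adjusted p = 0.0544) and whichever single piglet was left out (0.050, just over the threshold, to 0.129).

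ADAMTS2 and ADAMTS14 cut the N-terminal propeptide from fibrillar procollagens. ADAMTS14 was at 5.50, 5.94 and 4.66 FPKM before and 9.77, 8.11 and 7.97 FPKM after birth, without overlap (log2(FC) = 0.60, adjusted p = 0.0993). ADAMTS2 was at 15.6, 12 and 16.1 FPKM and then 11.8, 13.2 and 11.5 FPKM, with overlap (log2(FC) = -0.23, adjusted p = 0.466). Neither passed the threshold, and ADAMTS2 was the more abundant in every sample.

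ADAMTS4 and ADAMTS5 are the main aggrecanases, and their values differed in direction. ADAMTS4 was at 0.893, 0.513 and 1.38 FPKM in the fetal and 2.15, 2.18 and 3.10 FPKM in the neonatal group (log2(FC) = 0.86, adjusted p = 0.0819). ADAMTS5 was at 4.24, 3.38 and 4.31 FPKM before birth and 1.59, 2.51 and 1.01 FPKM after it (log2(FC) = -0.91, adjusted p = 0.0769). Neither gene had overlapping groups, and neither passed. ADAMTS8, with the highest mean FPKM of the matched ADAMTS genes, was at 17.2, 10.7 and 14.6 FPKM and then 20.2, 13.6 and 14.3 FPKM, with overlap. Its difference of 0.17 became -0.021 after quantile normalization.

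Of the ADAMTS genes without one of these roles, ADAMTS10 was at 9.93, 8.18 and 9.18 FPKM in the fetal and 8.09, 9.34 and 6.29 FPKM in the neonatal group. ADAMTS12 was at 2.70, 1.92 and 1.85 FPKM before and 3.98, 4.18 and 2.24 FPKM after birth. Both overlapped. ADAMTS15, another proteoglycanase, was at 20.5, 10.7 and 10.1 FPKM and then 10.4, 8.04 and 10.9 FPKM, with the first fetal piglet well above the rest (adjusted p = 0.433). The summed FPKM of the 15 ADAMTS genes was 98.2 ± 19.7 and 100.2 ± 6.46 (SD, n = 3 each), while that of the 10 MMPs was in the neonatal group 1.56 times that of the fetal group. As a share of the summed FPKM of all mRNAs, the MMPs made up 0.0499%, 0.0515% and 0.0488% in the fetal and 0.0582%, 0.0540% and 0.0450% in the neonatal lungs, and the ADAMTS genes 0.0280%, 0.0236% and 0.0202% and then 0.0218%, 0.0165% and 0.0121%. Both shares overlapped between the groups.

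Enzymes that process and crosslink collagen gave 6 rises and no fall among 22 measured of 29 listed genes. Their median log2(FC) was 0.43, and over all mRNAs 5.41% rose and 1.45% fell. The split became 5 rises and 0 falls with median-of-ratios scaling, and 5 rises and 1 fall with quantile normalization. With 1 piglet left out, 4 of the 22 were called without neonatal piglet 1 and 2 or 3 when any other piglet was the one left out. FKBP10, a chaperone of procollagen, rose from 6.25, 6.19 and 6.50 FPKM to 21.2, 22.2 and 23.4 FPKM (log2(FC) = 1.67, adjusted p = 0.00298 in limma). PCOLCE, an enhancer of procollagen C-proteinase, rose by 1.52, as did the lysyl oxidase-like enzyme LOXL4. Their ratios of mean FPKM were 3.0 for PCOLCE and 15.9 for LOXL4. All fetal values of LOXL4 were below 0.5 FPKM, so it was listed through its neonatal values alone and had to differ in some measure. LOXL1, another enzyme of the family, rose by 1.27, and the prolyl 3-hydroxylase genes P3H1 and P3H3 rose by 0.91 and 0.88. LOX itself had a log2(FC) of -0.50 and did not pass (adjusted p = 0.19). LOX, P4HA1 and PCOLCE2 had all neonatal values below all fetal values, and 12 of the 22 genes had them above. Over all mRNAs these shares were 9.64% below and 20.9% above. P4HB, CRTAP, PPIB, SERPINH1, FKBP14, COLGALT1 and LOXL2 of the list matched no row by symbol.

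Of 27 fibril partners and proteoglycans, 23 were measured, 7 rose and none fell, with a median of 0.56, beside the same 5.41% and 1.45% of all mRNAs. The split became 6 rises and 1 fall with median-of-ratios scaling, and 6 rises and 2 falls with quantile normalization. The count was 6 without neonatal piglet 1, 4 without fetal piglet 3 and 3 when any other piglet was the one left out. TNC, the matrix glycoprotein tenascin C, rose from 5.60, 5.49 and 9.83 FPKM to 55.2, 53.6 and 58.9 FPKM (log2(FC) = 2.88, adjusted p = 0.00183 in limma). THBS1, VCAN, TGFBI, POSTN and MATN4 rose by 1.72, 1.61, 1.41, 1.36 and 1.09, and FN1, fibronectin, rose by 1.02. None of the 15 measured of 19 basement membrane partners passed in limma, with 2 at an unadjusted p under 0.05 and a median of 0.05. The same held for the 10 measured of 13 collagen receptors, with 3 at an unadjusted p under 0.05 and a median of 0.31. Over all mRNAs, 3535 of 14579 had an unadjusted p under 0.05 in limma. LAMB2 and LAMC3, laminin chains, and DDR1, a collagen receptor, were called lower after median-of-ratios scaling and after quantile normalization, and LAMC3 was listed through its fetal values alone.

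Among 29 measured of 35 other proteases and inhibitors, 7 rose and 1 fell, with a median of 0.44, again beside 5.41% and 1.45% of all mRNAs. The split became 5 rises and 1 fall with median-of-ratios scaling, and 6 rises and 2 falls with quantile normalization. The count of 8 became 5 without neonatal piglet 1, 4 without fetal piglet 3, 3 without neonatal piglet 3 and 1 when any other piglet was the one left out. CTSL, the lysosomal protease cathepsin L, rose by 2.18, and SERPINE2, a serine protease inhibitor, by 1.96. PCSK5 and HTRA1, both serine proteases, rose by 1.33 and 1.31, and ADAM17 rose by 0.84. PCSK6, a proprotein convertase, fell from 25.3, 21.0 and 22.0 FPKM to 7.86, 5.06 and 3.48 FPKM (log2(FC) = -1.93, adjusted p = 0.00916 in limma).

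Marker genes of other cells were read beside these results. Of 7 smooth muscle markers, 6 were measured and 4 rose (ACTA2, TAGLN, CNN1 and ACTG2), and their sum went from 370 to 604 FPKM in the fetal to 1164 to 1815 FPKM in the neonatal samples. Their part in the collagen results was not tested. The sum of the 5 measured of 8 fibroblast markers overlapped, at 235 to 337 against 227 to 323 FPKM, most of it DCN in every sample. All neonatal values of LUM and GLI1 lay above all fetal values, those of FGF10 lay below, and PDGFRB and DCN overlapped. LUM and DCN of that list also belong to the fibril partners, as do ACAN, MATN3, HAPLN1 and COMP of the cartilage list. The 6 measured of 7 macrophage markers summed to 124 to 365 and 294 to 720 FPKM, most of it MARCO in every sample. PECAM1, SFTPC and HBB likewise made up most of the endothelial, alveolar type II and erythroid sums that follow. The sums were 205 to 239 and 198 to 218 FPKM for 4 of 7 endothelial markers, 837 to 1250 and 721 to 1340 FPKM for 4 of 6 alveolar type I markers, 3937 to 4721 and 5204 to 9997 FPKM for 4 of 6 alveolar type II markers, the surfactant genes typical of lung among them, and 1260 to 2700 and 967 to 1535 FPKM for 4 of 7 erythroid markers. WT1, the 1 measured of 5 mesothelial markers, was at most 0.819 FPKM and was listed at 0 in fetal piglet 3 and neonatal piglet 2. No marker of these 7 lists passed the threshold. At an unadjusted p under 0.05 in limma there were 2 fibroblast, 5 macrophage, 1 endothelial and 1 erythroid markers. There were 0 alveolar type I, alveolar type II and mesothelial markers at that level, and 3535 of 14579 mRNAs.

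Another 2 rows carried a name of this kind only in the study's list of differential genes, which holds only genes called in these samples, and they enter no count above. A further COL15A1 row was at 1.33, 0.698 and 1.05 FPKM before and 3.16, 3.42 and 2.78 FPKM after birth (adjusted p = 0.0300 in limma). COL7A1, the collagen of anchoring fibrils, was at 2.79, 3.68 and 3.03 FPKM in the fetal and 1.01, 1.27 and 1.53 FPKM in the neonatal group (adjusted p = 0.0448 in limma).

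**Figure D5:**
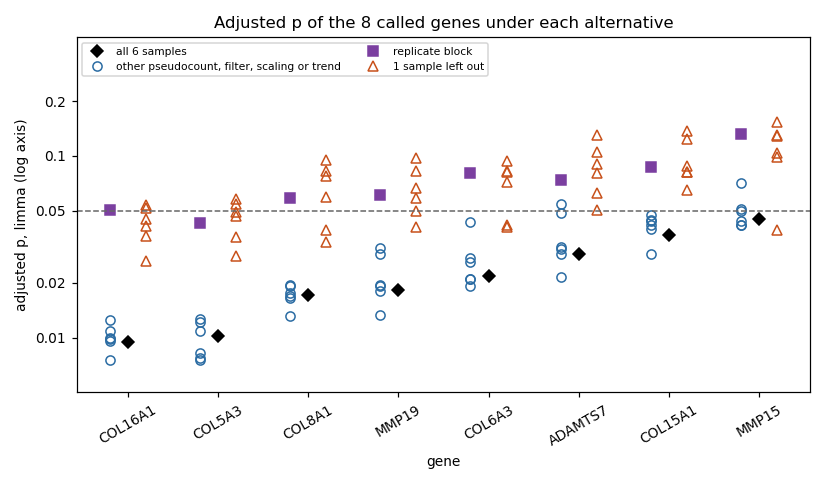
Adjusted p on a log axis for each of the 8 called genes, in the fit as reported and under each alternative, with a dashed line at 0.05. COL5A3 stays below the line in all alternatives that keep the 6 samples, and COL15A1 and ADAMTS7 lie at or above it whenever a piglet is left out.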

How the data were processed

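The authors mapped quality-filtered reads to Sscrofa10.2 and deposited FPKM values of 14579 mRNAs in 6 samples, with no read counts. The submitters' processing notes name CASAVA 1.8.2, TopHat2 2.1.0, Cufflinks 2.2.1, Cuffdiff and StringTie 1.2.2. All rows had FPKM above 0.5 in at least 1 sample. Columns were matched to samples by name, with 0 left unmatched, and the lncRNA table was not used.

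Differences on log2(FPKM + 1) came from limma 3.58.1 under R 4.3.3, using a variance trend and Benjamini-Hochberg adjustment over all rows. The fit was tested on simulated data, and a difference that missed the threshold is not read as no difference. Tables and figures were made in Python 3.11.15 with numpy 2.4.6, pandas 2.3.3 and matplotlib 3.10.9. P-values rest on the spread between these 3 and 3 piglets, moderated by the variance trend over all mRNAs. An exact permutation test of 3 against 3 cannot go below a two-sided p of 0.1, so none was used.

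The members and the 5 pathway and 10 marker lists were chosen with earlier results of these data known. Named genes were those past the threshold, the most abundant of each structural class, every TIMP, chains of one heterotrimer, and in each family the 5 others with the largest absolute difference, besides at most 6 called genes per pathway list. COL2A1, COL9A1, COL11A1, COL11A2, COL5A2, COL14A1, COL10A1, MMP17, LOX, P4HA1, PCOLCE2, LAMB2, LAMC3, DDR1 and FN1 were named outside this rule, after their values were seen. Alternatives were pseudocounts of 0.5 and 0.1, quantile normalization, median-of-ratios scaling, a stricter filter (3 or more samples above an FPKM of 1), blocks by replicate number, no variance trend, and fits with 1 sample left out. Beyond neighbouring pairs, genome positions were not compared, because the RefSeq table used for neighbours is of Sscrofa11.1. The authors set the strand of the libraries in mapping and in quantification.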

Additional observations from a re-analysis of the deposited data

How the results depend on the processing

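Pseudocounts of 0.5 and 0.1 and the stricter filter changed no count of called genes by more than 1.5 times. With quantile normalization, 1 MMP was called, and without a variance trend also 1. With median-of-ratios scaling, no ADAMTS gene was called. Of the basement membrane partners, 2 were called with median-of-ratios scaling, 2 with quantile normalization and 1 without a variance trend, and of the collagen receptors 1 with each scaling. Leaving out 1 piglet at a time gave 0 to 4 called collagens, 0 to 2 MMPs, 0 ADAMTS genes, 2 to 4 genes of collagen synthesis, 3 to 6 fibril partners, 1 to 5 other proteases and 196 to 944 of all mRNAs. These fits have fewer samples. The lowest counts of all mRNAs and of collagens came without fetal piglet 2.

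The replicate numbers are shared by the groups, but the piglets came from different sows. Same-numbered piglets did not deviate together (correlations of -0.041, -0.0043 and 0.00047), and no sample correlated best with its own number. With the replicate block, 401 of all mRNAs, 1 collagen (COL5A3), 0 MMPs, 0 ADAMTS genes, 2 genes of collagen synthesis, 3 fibril partners and 4 other proteases were called.

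The collagen median was 0.10 with median-of-ratios scaling, 0.043 with quantile normalization and 0.10 to 0.44 with a piglet left out. The MMP median was 0.76 with the stricter filter and 0.30 with quantile normalization. The ADAMTS median was 0.17 with the stricter filter, -0.17 with median-of-ratios scaling, -0.15 with quantile normalization and -0.095 to 0.15 with a piglet left out. With quantile normalization, the neonatal minus fetal share of summed FPKM was 0.0186 points for collagens, 0.0105 for MMPs, 0.00150 for TIMP1 and -0.00202 for ADAMTS genes, against -0.0119, 0.00232, 0.000654 and -0.00717 as deposited, so that the collagen difference changed sign. With a piglet left out, it was -0.0396 to 0.0272 for collagens and -0.000561 to 0.00603 for MMPs.

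Of the 36 named genes, none that passed the threshold reversed. With quantile normalization, the differences became -0.021 for ADAMTS8, -0.11 for COL12A1, -0.046 for COL28A1, -0.067 for COL3A1, -0.17 for COL4A3, -0.19 for COL4A4 and -0.20 for MMP11. With median-of-ratios scaling they became -0.031 for COL28A1, -0.067 for COL4A3, -0.14 for COL4A4 and -0.14 for MMP11. With a piglet left out they ran from -0.0069 to 0.31 for ADAMTS8, -0.19 to 0.17 for COL28A1, -0.093 to 0.35 for COL4A3, -0.12 to 0.20 for COL4A4 and -0.10 to 0.25 for MMP11. Apart from changes that follow from fewer samples, the cause was not tested. Without read counts, the precision of low values such as those of MMP8, MMP17, MMP27 and COL10A1 is not known.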
